A study of Homo sapiens with 12 samples.

Results

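The 10 genes described here encode heat shock chaperones, proteins that help other proteins fold. The members were taken by name from the deposited table, and all 10 of 10 named were found among its 57134 genes. They are the mitochondrial chaperonin pair HSPD1 and HSPE1, the Hsp70 proteins HSPA8, HSPA9 and HSPA5, the Hsp110 protein HSPH1, the Hsp90 paralogs HSP90AA1 and HSP90AB1, the small heat shock protein HSPB1 and the J protein DNAJB1. Total RNA of HCT116, an established human colon carcinoma cell line, was sequenced after MATQ-seq, which primes and amplifies RNA with or without a poly(A) tail. The study compared libraries depleted of ribosomal RNA (rRNA) by scDASH, in which Cas9 cuts sequence that comes from rRNA, with libraries that were not. The depleted libraries are called DASHed, as in the labels, and the others untreated. Cells sorted by FACS gave 4 DASHed and 4 untreated single-cell libraries, and a mini-bulk input, whose cell number the labels do not give, gave 2 DASHed and 2 untreated libraries. All groups are of the same line, and the labels name no drug, edit or heat treatment for any of them. No separate cultures are named, so p-values from mini-bulk measure the spread between these libraries, which may be technical, and the single cells carry no test.

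Chaperones bind unfolded or partly folded proteins and release them, mostly in cycles of ATP binding and hydrolysis. Hsp70 proteins take unfolded stretches that J proteins deliver, Hsp110 proteins act as their nucleotide exchange factors, Hsp90 proteins act on nearly folded clients such as kinases and steroid receptors, and chaperonins enclose a protein in a chamber. Small heat shock proteins hold unfolded proteins without using ATP. Many of these genes are induced under stress by heat shock factor 1, and cancer cell lines commonly express them at high levels without heat.

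Depletion changed the scale on which a level can be read, because rRNA filled different shares of the libraries. The libraries held 837614 to 1573651 estimated counts after depletion and 5545355 to 6026584 without it. Rows of rRNA, together with 4 lincRNA rows that lie inside 18S rRNA genes, took 29.9 to 42.7% of the counts in DASHed and 72.9 to 85.8% in untreated libraries. Levels are therefore given as counts scaled to a common total of the counts outside these rows, written CPM outside rRNA. Fold changes of mini-bulk are on the TMM scale, which sets the bulk of the genes to no change. Epithelial markers fitted the label: all 7 had counts in the 4 mini-bulk libraries, 6 in every untreated single cell and 4 in every DASHed single cell. Their summed level was 1226 to 6082 CPM outside rRNA over the 12 libraries. The summed level of 8 markers of other cell types was 0 to 53.2 CPM outside rRNA, with CD3E, HBB and ALB at 0 in each library. Of the epithelial markers EPCAM had a mini-bulk log2 fold change of −2.12, KRT8 of 1.10 and KRT19 of 0.90 (edgeR adjusted p = 0.0125, 0.00143 and 0.0154). Of the markers of other cell types COL1A1 had a fold change of 0.68 (edgeR adjusted p = 0.345), and PECAM1, with 7.56 and 4.82 counts in untreated and 3.02 and 2 in DASHed mini-bulk libraries, was not tested.

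Most chaperone transcripts were lower after depletion relative to other genes, and only the small heat shock protein and the J protein were higher. In mini-bulk, 7 of the 10 fell, 2 rose and HSPA5 did not pass the test (edgeR quasi-likelihood test, Benjamini-Hochberg adjusted p under 0.05 over 10083 genes). Over the tested genes 19.8% fell and 9.84% rose by the same rule. All 10 members had counts in every library and passed the filter on low counts. On CPM outside rRNA both DASHed mini-bulk libraries lay below both untreated ones for 7 members and above them for HSPB1 and DNAJB1, while HSPA5 overlapped. Such separation was common, with 34.4% of the tested genes wholly lower and 35.5% wholly higher. The median log2 fold change of the members was −1.49, against 0.03 over all genes tested. These directions belong to the TMM scale. Scaling to total counts alone moved the median of all genes to 2.03, and on that scale HSPA8, HSP90AB1, HSPA5 and HSPA9 had log2 fold changes of 0.22, 1.01, 1.61 and 0.82. There HSP90AB1, HSPA5, HSPB1 and DNAJB1 rose and only HSPD1 fell, while 66.4% of all tested genes rose and 1.42% fell.

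**Figure D1:**
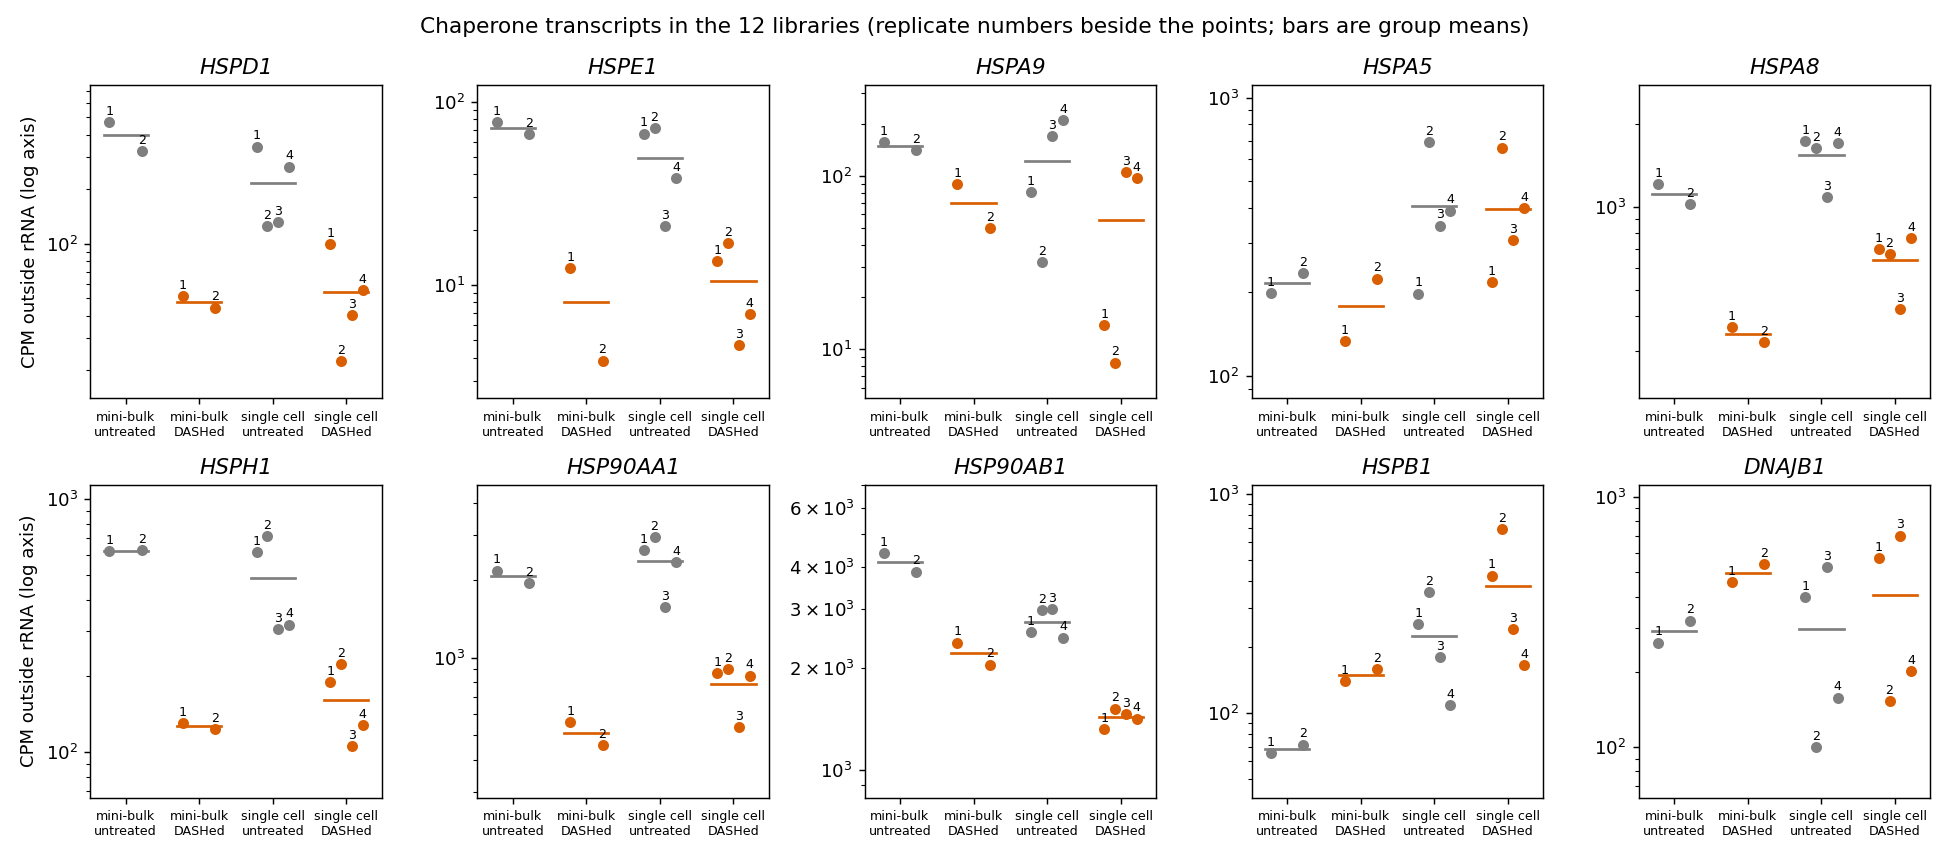
Level of each chaperone transcript in the 12 libraries, as CPM outside rRNA on a log axis that differs between panels. Points are libraries with their replicate number, and bars are group means. In mini-bulk the 2 DASHed libraries lie below both untreated ones for 7 genes and above them for HSPB1 and DNAJB1.

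The mitochondrial chaperonin transcripts fell furthest. HSPD1 (ENSG00000144381.16, chr2:197486581-197516737, minus strand, GENCODE v29 on GRCh38) encodes Hsp60, the subunit of the folding chamber in the mitochondrial matrix. It stood at 472.5 and 326.3 CPM outside rRNA in the untreated mini-bulk libraries and at 51.3 and 44.3 in the DASHed ones. The DASHed values lay far below both untreated ones, and HSPD1 fell by 3.17 (log2 fold change; SE 0.26, edgeR adjusted p = 0.000112), or 8.98-fold. In single cells it ranged from 124.9 to 344.4 CPM outside rRNA, with a median of 199.4, without depletion, and from 22.4 to 99.2, with a median of 47.7, after it. The ranges did not overlap, and in each same-numbered pair of cells the DASHed cell was lower, with ratios of 0.179 to 0.305.

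HSPE1 (ENSG00000115541.10, chr2:197499994-197503457, plus strand) encodes Hsp10, the lid of that chamber, and lies head to head with HSPD1. Its mini-bulk levels were 77.0 and 66.6 CPM outside rRNA without depletion and 12.3 and 3.85 after it. It fell by 3.15 (SE 0.53, edgeR adjusted p = 0.00342). Without DASHed replicate 1 the log2 fold change was −4.14 and without DASHed replicate 2 it was −2.47, and both passed. The DASHed values rest on 7.7 and 2.0 estimated counts, against 65.8 and 69.0 in the untreated libraries. In single cells HSPE1 held 5 to 12 estimated counts after depletion and 26.6 to 108 without it, and the ranges of its CPM outside rRNA did not overlap. Its values are uncertain, because 23.9% of its exonic bases are shared with HSPD1 on the opposite strand or with the readthrough gene HSPE1-MOB4, and the handling of strand is not given in the sources used here. Rows of its pseudogenes and the readthrough gene held 40.9% of the counts of HSPE1 and these rows in 1 library and 8.65% over all 12, while for all members together such rows held 0.390%. Within a library the ratio of HSPD1 to HSPE1 counts was 4.90 and 6.14 in untreated and 4.17 and 11.5 in DASHed mini-bulk, so the 2 groups overlapped.

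Among the Hsp70 proteins the cytosolic, mitochondrial and endoplasmic reticulum forms differed. HSPA8 (ENSG00000109971.13, chr11:123057489-123063230, minus strand) encodes Hsc70, the form that is expressed without stress and that also uncoats clathrin vesicles. It went from 1203.5 and 1020.5 CPM outside rRNA to 365.9 and 323.6 in mini-bulk, groups that did not overlap. It fell by 1.80 (SE 0.16, edgeR adjusted p = 0.000178). In single cells its values were 1726, 1627, 1081 and 1702 CPM outside rRNA without depletion and 700.6, 673.1, 425.8 and 770.4 after it, in the order of the cell numbers. Cell 3 was the lowest in both groups, and the pair ratios ran from 0.394 to 0.453.

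HSPA9 (ENSG00000113013.13, chr5:138553756-138575724, minus strand) encodes mortalin, the Hsp70 of the mitochondrial matrix, which pulls proteins in through the inner membrane. Its mini-bulk values were 156.8 and 140.4 CPM outside rRNA without depletion and 89.9 and 50.1 after it. It fell by 1.18 (SE 0.30, edgeR adjusted p = 0.0188). The call ended without DASHed replicate 2, where the log2 fold change was −0.72 (edgeR adjusted p = 0.0990). Single cells spread widely, from 31.9 to 208.8 CPM outside rRNA without depletion and from 8.40 to 104.6 after it. These ranges overlapped, yet within each same-numbered pair the DASHed cell was lower, with ratios of 0.170 and 0.263 in pairs 1 and 2 and of 0.619 and 0.463 in pairs 3 and 4. The DASHed cells of pairs 1 and 2 held 11.2 and 6.0 estimated counts.

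HSPA5 (ENSG00000044574.7, chr9:125234853-125241330, minus strand) encodes BiP, the Hsp70 of the endoplasmic reticulum, which also restrains the sensors of the unfolded protein response. Its mini-bulk values were 197.8 and 233.5 CPM outside rRNA without depletion and 133.2 and 223.7 after it, groups that overlapped. The log2 fold change was −0.40 (SE 0.27, edgeR adjusted p = 0.271), and without DASHed replicate 1 it was 0.08. In single cells the values were 197.5, 693.5, 346.4 and 392.3 CPM outside rRNA without depletion and 216.8, 660.3, 308.2 and 399.5 after it. The 4 pair ratios lay on both sides of 1, from 0.890 to 1.10, while the highest untreated cell had 3.51 times the level of the lowest.

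HSPH1 (ENSG00000120694.19, chr13:31134974-31162388, minus strand) encodes Hsp110, a relative of Hsp70 that speeds its nucleotide exchange. It stood at 621.1 and 630.5 CPM outside rRNA without depletion and at 129.98 and 123.3 after it, with little spread within either group. It fell by 2.42 (SE 0.18, edgeR adjusted p = 6.15e-05). In single cells the level was 306.0 to 712.8 CPM outside rRNA without depletion and 105.5 to 222.5 after it, ranges that did not overlap. Cells 1 and 2 were above cells 3 and 4 in both groups.

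The cytosolic Hsp90 paralogs both fell, and to different extents. HSP90AA1 (ENSG00000080824.18, chr14:102080738-102139699, minus strand) encodes the more stress-inducible Hsp90 alpha. It went from 2182.5 and 1954.4 to 561.6 and 454.6 CPM outside rRNA in mini-bulk and fell by 2.14 (SE 0.16, edgeR adjusted p = 7.36e-05). HSP90AB1 (ENSG00000096384.19, chr6:44246166-44253888, plus strand) encodes Hsp90 beta, the form expressed at a steady level. It went from 4388.3 and 3871.3 to 2384.5 and 2051.4 CPM outside rRNA and fell by 1.01 (SE 0.14, edgeR adjusted p = 0.00168). Neither gene had overlapping groups.

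The ratio of the Hsp90 paralogs within a library needs no scaling between libraries. HSP90AB1 had 2.01 and 1.98 estimated counts per count of HSP90AA1 in the untreated mini-bulk libraries, and 4.25 and 4.51 in the DASHed ones. The gap between the groups was larger than the spread within either, although no test was run on it. In single cells the ratio was 0.976, 1.01, 1.91 and 1.05 without depletion and 1.51, 1.68, 2.72 and 1.67 after it, in the order of the cell numbers. It was higher after depletion in 4 of 4 pairs, and cell 3 had the highest ratio in both groups.

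The remaining members rose. HSPB1 (ENSG00000106211.8, chr7:76302544-76304295, plus strand) encodes Hsp27, a small heat shock protein that binds unfolded proteins and actin. It went from 65.3 and 71.4 to 139.3 and 157.9 CPM outside rRNA in mini-bulk and rose by 0.998 (SE 0.25, edgeR adjusted p = 0.0182). DNAJB1 (ENSG00000132002.7, chr19:14514770-14529770, minus strand) encodes Hsp40, which brings clients to Hsp70 and stimulates its ATPase. It went from 262.0 and 320.5 to 455.7 and 537.4 CPM outside rRNA and rose by 0.65 (SE 0.19, edgeR adjusted p = 0.0290). Both calls ended without either untreated library. HSPB1 was at 0.80 without untreated replicate 1 (edgeR adjusted p = 0.204) and at 0.85 without untreated replicate 2 (0.177). DNAJB1 was at 0.38 (0.476) and 0.60 (0.195) in these fits. Without DASHed replicate 2 DNAJB1 was at 0.64 with an edgeR adjusted p of 0.0515, which did not pass, and without DASHed replicate 1 both genes were still called.

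In single cells these genes varied more between cells than with depletion. HSPB1 ranged from 108.0 to 356.1 CPM outside rRNA without depletion and from 164.7 to 688.5 after it, and DNAJB1 from 100.3 to 525.2 and from 152.5 to 700.4. The ranges overlapped for both. Each DASHed cell was nevertheless above the untreated cell of its number, by ratios of 1.34 to 1.93 for HSPB1 and 1.28 to 1.52 for DNAJB1. HSPB1 was highest in cell 2 and DNAJB1 in cell 3, in both groups.

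**Figure D2:**
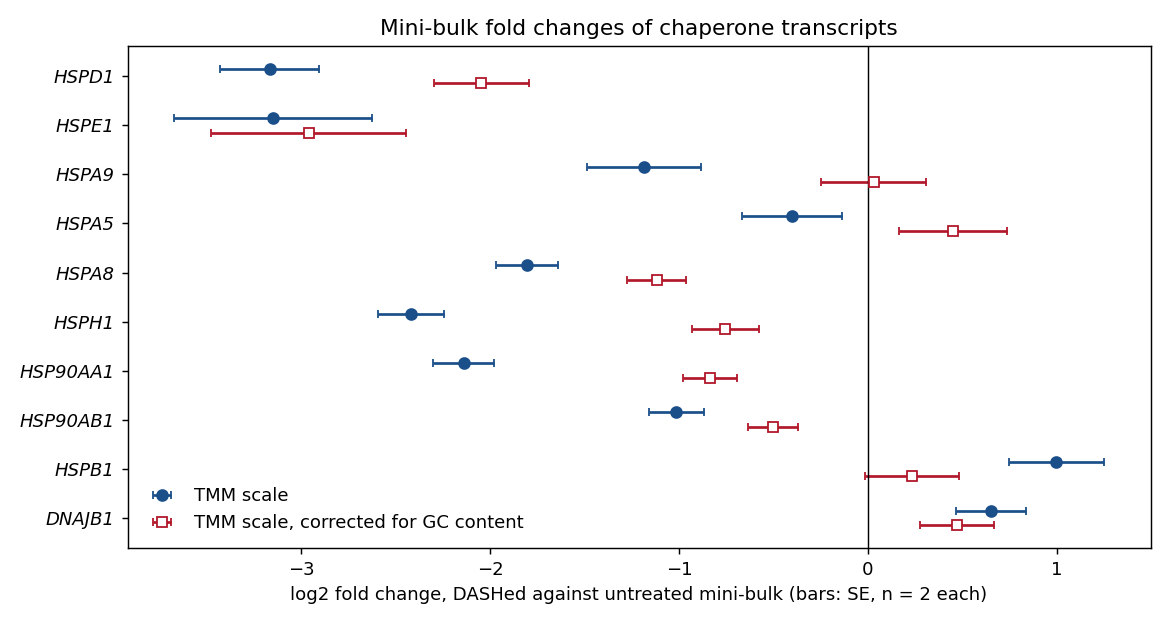
Mini-bulk log2 fold change of each gene, DASHed against untreated, with its SE (n = 2 each), as fitted on the TMM scale (filled circles) and with a correction for GC content (open squares). On the TMM scale 7 genes lie below 0 past the threshold. Scaled to total counts HSPA8, HSP90AB1 and HSPA9 turn above 0, as does HSPA5, which did not pass, and HSPA9 and HSPA5 also do so with the correction.

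Fold changes of the members moved with their base composition, as those of other genes did. Across the 10 members the mini-bulk log2 fold change correlated with the GC content of the principal transcript at Pearson's r = 0.685 (Spearman's rho = 0.564). Across 10011 other tested genes r was 0.738 and rho 0.789. All points share the same 4 libraries and genes are not independent replicates, so no p is given. HSPB1 has the highest GC content of the members, 64.5%, and DNAJB1 follows with 53.0%, while HSPH1 has the lowest, 40.0%. In a fit that corrects each library for GC content, 5 of the 10 members still fell and none rose. These were HSPD1 (log2 fold change −2.05, edgeR adjusted p = 0.00193), HSPE1 (−2.96, 0.0119), HSPA8 (−1.12, 0.00383), HSP90AA1 (−0.84, 0.0112) and HSPH1 (−0.76, 0.0441). HSP90AB1 was at −0.50 (0.0714), DNAJB1 at 0.47 (0.249), HSPB1 at 0.23 (0.726), HSPA5 at 0.45 (0.495) and HSPA9 at 0.03 (0.980). In that fit 1.87% of 10021 genes rose and 2.14% fell.

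Each member was also set against the other tested genes nearest to it in GC content. Of these, 0.664% had a lower fold change than HSPE1, 1.99% a lower one than HSPD1 and 12.3% a lower one than HSPA8. The median of these neighbours was −0.14 for HSPE1, −1.18 for HSPD1 and −0.61 for HSPA8. HSPA9 and HSPB1 lay close to their neighbours, whose medians were −1.23 and 0.84. HSPH1 and HSP90AB1 each had 25.9% of their neighbours below them, HSP90AA1 20.6% and DNAJB1 73.8%.

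**Figure D3:**
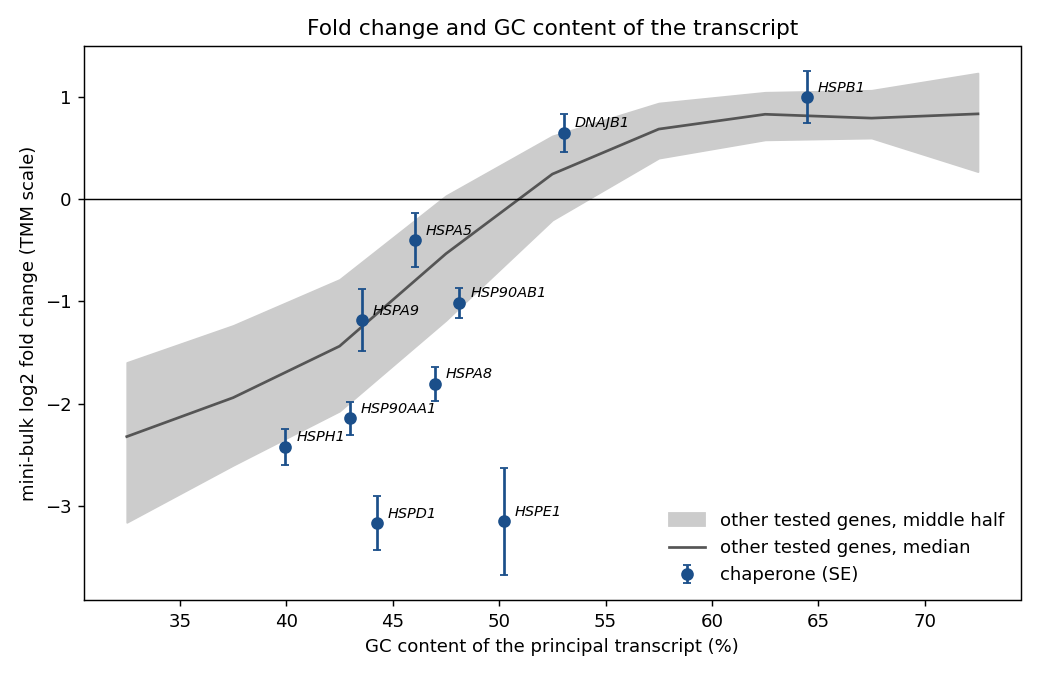
Mini-bulk log2 fold change on the TMM scale against the GC content of the principal transcript. Blue points are the chaperones with their SE, the line is the median of the other tested genes in bins of GC content and the grey band holds the middle of their values, from the lower to the upper quartile. HSPD1, HSPE1, HSPA8 and HSP90AA1 lie below the band, HSPH1 and HSP90AB1 lie near its lower and DNAJB1 near its upper edge, and HSPA9, HSPA5 and HSPB1 lie within it.

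The coding sequence alone ordered the members more closely than the whole transcript did. This measure was chosen after the fold changes were seen. The correlation was r = 0.879 (rho = 0.903) with the GC content of the coding sequence and r = 0.917 (rho = 0.927) with that of the third codon position, over the same 10 genes. For 9049 other tested coding genes the values were 0.744 (rho = 0.776) and 0.744 (rho = 0.767). Over these same genes the GC content of the whole transcript gave r = 0.760 (rho = 0.801). The order was thus closer with the coding sequence over these 10 genes and not over the other coding genes. As the measure was chosen afterwards, this does not set the members apart. HSPE1, with 7.7 and 2.0 estimated counts in the DASHed mini-bulk libraries, shows the gap between the measures. Its transcript has a GC content of 50.2%, with 65.2% in the 5′ untranslated region, but G or C ends only 26.2% of its codons, the lowest share of the members. The order of that share was HSPE1 at 26.2%, HSPD1 at 31.9%, HSPH1 at 36.6%, HSPA9 at 40.7%, HSPA8 at 45.9%, HSP90AA1 at 47.5%, HSPA5 at 49.6%, HSP90AB1 at 58.1%, DNAJB1 at 67.2% and HSPB1 at 87.4%. With the libraries corrected for this share in place of transcript GC content, 4 of the 10 members fell: HSPD1 (−1.17, edgeR adjusted p = 0.0218), HSPA8 (−0.66, 0.0340), HSP90AA1 (−1.11, 0.00124) and HSP90AB1 (−0.73, 0.00859). In that fit 2.55% of 9059 genes fell and 2.78% rose. HSPE1 was then at −0.89 (0.419) and HSPH1 at −0.68 (0.0559). Of the other coding genes nearest in that share, 14.3% had a lower fold change than HSPE1 and 11.3% a lower one than HSPD1.

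Stretches of 90 coding bases from the middle of the genes at either end of the fold changes show this composition. Capitals mark G or C at the third position of a codon, in frame from the first base. HSPD1 is from coding bases 817 to 906 (exons 7 and 8, between 197490260 and 197493376 on chr2) and has 10 such codons of 30. HSPB1 is from coding bases 265 to 354 (exon 1, chr7:76302977-76303066) and has 27 of 30. Both are read 5′ to 3′ on the coding strand from GENCODE v29 transcripts on GRCh38.
HSPD1: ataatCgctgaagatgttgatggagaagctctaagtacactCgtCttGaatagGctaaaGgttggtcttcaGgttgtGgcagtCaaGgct
HSPB1: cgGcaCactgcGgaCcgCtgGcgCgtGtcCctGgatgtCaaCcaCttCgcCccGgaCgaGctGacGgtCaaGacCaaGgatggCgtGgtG

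The Hsp90 paralogs offer the same comparison within a pair of related sequences. Their coding sequences aligned over 2175 bases, of which 76.0% were identical. Of the 521 differences, 389 lay at the third codon position. HSP90AA1 had A or T where its paralog had G or C at 259 positions, and the reverse held at 139. The aligned stretches below, shown because these paralogs fell to different extents, differ at 18 of 90 bases. G or C ends 17 of 30 codons in HSP90AA1 (coding bases 1066 to 1155, exons 6 and 7) and 19 of 30 in HSP90AB1 (coding bases 1042 to 1131, exons 7 and 8).
HSP90AA1: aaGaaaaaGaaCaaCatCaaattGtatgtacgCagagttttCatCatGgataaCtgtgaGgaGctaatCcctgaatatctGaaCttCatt
HSP90AB1: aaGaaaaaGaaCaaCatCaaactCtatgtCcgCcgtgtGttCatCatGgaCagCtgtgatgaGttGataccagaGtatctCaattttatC

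Single cells had the same sign as mini-bulk for 9 of 10 members, each input on its own scale. The share of all genes with the same sign in both inputs is not given here, so this count has no background beside it. The log2 ratio of summed CPM of all counts, minus the median of 13469 genes, was −1.48 for HSPD1, −1.84 for HSPE1, −0.83 for HSPA8, −1.18 for HSP90AA1, −0.51 for HSP90AB1, −0.50 for HSPA9, −1.24 for HSPH1, 1.03 for HSPB1 and 1.004 for DNAJB1. HSPA5 had 0.27, the opposite sign to mini-bulk, where it did not pass. This value moved with the scale and the pseudocount. It was 0.85 with a pseudocount of 10 CPM. On CPM outside rRNA, with no median taken off, HSPA5 was at −0.16 and the median gene at −0.18. Against the median of the genes nearest in GC content, HSPD1 was at −0.81, HSPE1 at −1.85, HSPA8 at −0.50 and HSP90AA1 at −0.21. HSP90AB1 was at −0.37, HSPH1 at −0.07, HSPA9 at 0.31, HSPB1 at 0.19 and DNAJB1 at 0.61 there. Against genes nearest in expression, HSPB1 was at 0.15 and DNAJB1 at 0.12, while the members with a negative ratio lay lower, HSPD1 at −2.09. Across the members the mini-bulk fold changes and the single-cell ratios correlated at r = 0.989 (rho = 0.976), as a description of 10 genes. Each input has its own DASHed and untreated groups, and the correlation over all genes is not given here. On CPM outside rRNA, 7 members were lower in the DASHed cell of every same-numbered pair and 2 were higher in every pair. Over 7347 genes with at least 20 counts a cell on average, 24.9% were lower and 20.2% higher in every pair. The single-cell ranges of the groups did not overlap for 6 members: HSPD1, HSPE1, HSPA8, HSP90AA1, HSP90AB1 and HSPH1, all lower after depletion. The same held for 4.8% of the 7347 genes. With counting error alone, the ratio of the summed cells on that scale was 0.261 for HSPD1 (95% interval 0.223 to 0.304), 0.893 for HSPA5 (0.834 to 0.955) and 1.52 for HSPB1 (1.40 to 1.64). The ratio for HSPA5 lay close to the median gene, which was at 0.883 on that scale. On CPM of all counts, with no median taken off, HSPA8, HSP90AB1 and HSPA9 were higher after depletion.

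**Figure D4:**
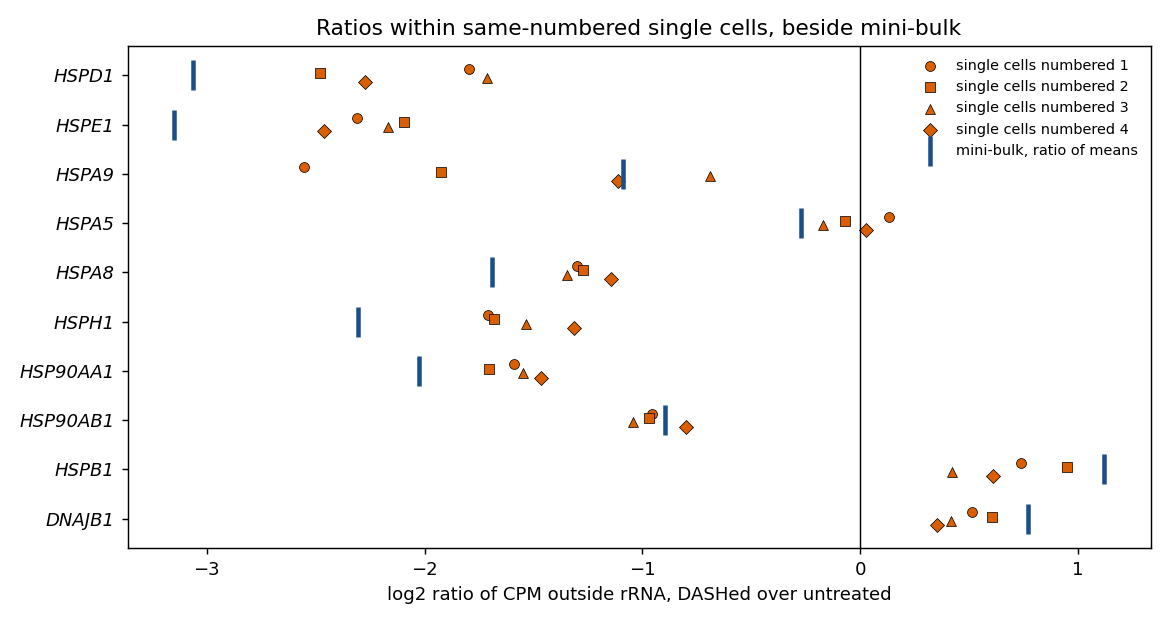
Log2 ratio of CPM outside rRNA, DASHed over untreated, within each same-numbered pair of single cells (orange symbols) and for the group means of mini-bulk (blue bars). HSPA5 lies near 0 in all 4 pairs, 7 genes lie below 0 and HSPB1 and DNAJB1 above 0 in all 4. On CPM of all counts the ratios of the summed cells turn above 0 for HSPA8, HSP90AB1 and HSPA9.

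The order of the cells was nearly the same in both groups. The highest cell carried the same number with and without depletion for 7 of the 10 members, and the lowest for 9. Over the same 7347 genes the highest cell had the same number for 81.4% and the lowest for 79.3%, so the members were near the background in this respect. Deviations from the group means of same-numbered cells correlated at 0.922 to 0.932 across 7349 genes. What a number marks is not stated in the labels, so the DASHed and untreated libraries of a number may come from the same cell, which was not tested.

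Per length of transcript, HSP90AB1 had the highest mean level of the members in each group. In untreated mini-bulk its level was 1544 ± 137 CPM outside rRNA per kilobase (SD, n = 2), above HSP90AA1 at 612.2 ± 47.7 and HSPA8 at 451.5 ± 52.5, and each of these steps exceeded the spread of the libraries. HSPD1 at 162.7 ± 42.1, DNAJB1 at 128.6 ± 18.3 and HSPH1 at 120.5 ± 1.3 overlapped with their neighbours in that order, as HSPE1 at 75.6 ± 7.7 did with HSPB1 at 75.2 ± 4.8. HSPA5 at 55.2 ± 6.5 and HSPA9 at 31.4 ± 2.5 came last. After depletion DNAJB1 at 219.3 ± 25.5 and HSPB1 at 163.5 ± 14.5 took ranks 2 and 3, though HSPB1 overlapped with HSP90AA1 at 150.4 ± 22.4. HSPD1 at 19.5 ± 2.0, HSPA9 at 14.8 ± 6.0 and HSPE1 at 8.5 ± 6.3 came last and overlapped. HSPB1 had rank 4 in untreated single cells, at 246.8 ± 117 (SD, n = 4), against rank 8 in untreated mini-bulk, and the 2 inputs were not compared by a test.

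Summed over the 10 genes, the chaperones took a larger share of all counts after depletion and a smaller share of the counts outside rRNA. In mini-bulk the share of all counts was 0.247% ± 0.00117 in DASHed and 0.145% ± 0.0124 in untreated libraries (SD, n = 2 each), a ratio of 1.70. Of the counts outside rRNA they took 0.415% ± 0.0250 and 0.913% ± 0.0701, a ratio of 0.454. Both shares had p = 0.3333 in an exact permutation test (two-sided), the lowest that this design can reach. The summed single cells had 0.283% (exact binomial 95% interval 0.279 to 0.287%) against 0.188% (0.186 to 0.190%) of all counts, and 0.427% against 0.850% of the counts outside rRNA. HSP90AB1 made up 45.2% of the members' counts in untreated and 53.4% in DASHed mini-bulk libraries, and HSP90AA1 22.7% and 12.2%.

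Other genes of the chaperone network moved in both directions, and their counts are to be read against the 19.8% of tested genes that fell and the 9.84% that rose. Of 23 tested J proteins, which load Hsp70, 8 fell and 2 rose. The largest of these changes were in DNAJC10, a reductase of the endoplasmic reticulum (−2.75, SE 0.36, edgeR adjusted p = 0.00110), DNAJC21 (−2.29, SE 0.62, 0.0234) and DNAJA1 (−2.14, SE 0.38, 0.00461). Of 15 Hsp90 cochaperones 6 fell and 4 rose, with RPAP3 at −2.70 (SE 0.55, 0.00744), SUGT1 at −2.59 (SE 0.43, 0.00342) and ST13, which links Hsp70 to Hsp90, at −1.79 (SE 0.31, 0.00397). Of 14 chaperones of the endoplasmic reticulum 5 fell and 2 rose, with ERO1A, an oxidase that drives disulfide formation, at −2.44 (SE 0.46, 0.00583) and the calcium-binding lectin CANX at −1.84 (SE 0.16, 0.000126). PDIA3, an oxidoreductase, was at −2.03 (SE 0.27, 0.00120) and is uncertain, since 18.9% of its exonic bases are shared with other genes. Of the 8 other Hsp70 and Hsp110 genes tested 2 fell and 2 rose, with HSPA4 at −1.97 (SE 0.45, 0.0127), HSPA4L at −1.58 (SE 0.50, 0.0409) and HYOU1 at 0.69 (SE 0.21, 0.0370).

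Of 11 mitochondrial chaperones and proteases 4 rose and 0 fell, with TIMM44, which tethers HSPA9 to the import channel, at 1.30 (SE 0.35, edgeR adjusted p = 0.0236), and CLPP, a matrix protease, at 0.99 (SE 0.28, 0.0293). TRAP1, the mitochondrial Hsp90, was at 1.11 (SE 0.16, 0.00159) and shares 29.3% of its exonic bases with other genes, so its value is uncertain. HSPD1, HSPE1 and HSPA9, which work in the same compartment, fell. The median GC content of the tested genes was highest in the mitochondrial list, at 59.6%, and lowest in the J proteins, at 44.0%. The other lists had medians of 50.4 to 55.2%. HSPD1, HSPE1 and HSPA9 have 44.2, 50.2 and 43.5%. A link between these values and the calls in the lists was not tested. Of 10 nucleotide exchange factors BAG6 alone rose, by 0.76 (SE 0.17, 0.0112). Of 8 heat shock factors and regulators ATF6, a sensor of the unfolded protein response, alone fell. It fell by 1.86 (SE 0.41, 0.0103). The 1 small heat shock gene tested, HSPB11, had −0.995 (SE 0.66, 0.267), and HSPB6, with 1 count in each untreated and 0 in each DASHed mini-bulk library, was not tested. Over these 8 lists 37 of 90 tested genes were called, 15 up and 22 down. After the correction for GC content none of these 37 was called. The 1 gene called then was YME1L1 of the mitochondrial list (1.74, edgeR adjusted p = 0.00128), which was not called before (0.22, 0.414). Scaled to total counts, 56 of the 90 tested genes were called and all rose.

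Promoters of the members were searched for the sequence that heat shock factor 1 binds. The factor binds repeats of GAA and its complement TTC at a fixed spacing. Windows from 250 bases before to 50 after each annotated start (RefSeq, GRCh38.p14; 16 windows, all 10 members matched) were read for GAANNTTC and TTCNNGAA, each of which reads the same on both strands. Either core was present in a window of 7 of the 10 members, against 16.2% of 27305 genes. The element of 3 units, a longer run that holds both cores overlapping, was present in 4 members, HSP90AA1, HSP90AB1, HSPA8 and HSPD1, against 0.608% of genes. HSPE1, HSPH1 and HSPA5 had no core in their windows. The 3-unit element of HSPD1 lies outside the HSPE1 window, which begins at chr2:197500129, and inside the annotated span of HSPE1. All libraries are of the same line, and a link between promoter sequence and the fold changes was not tested. A match in sequence is a description and does not show binding. The runs are shown in windows of 30 bases, 5′ to 3′ on the strand of the gene, with the 3-unit element in capitals. In HSPD1 the capitals are 2 overlapping elements, 18 bases in all, and for HSPA8 and HSP90AB1, which have 2 separate ones, the one closer to the start is shown.
HSPD1: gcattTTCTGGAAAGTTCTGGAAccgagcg
HSPA8: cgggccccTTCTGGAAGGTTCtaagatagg
HSP90AA1: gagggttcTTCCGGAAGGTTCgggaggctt
HSP90AB1: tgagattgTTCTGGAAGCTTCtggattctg
In the same order they lie at chr2:197500061-197500090, chr11:123062170-123062199, chr14:102087111-102087140 and chr6:44247823-44247852, and the element starts 245, 55, 88 and 112 bases before the start of transcription.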

How the data were processed

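Estimated counts per gene were deposited by the authors as 1 table of 57134 genes and 12 libraries. They came from kallisto, version 0.46.2 according to the submitters' processing notes. Not given in the sources used here are genome build, annotation, strand handling and how transcripts were summed. The estimated counts were rounded and mini-bulk libraries tested with edgeR 4.0.16 (R 4.3.3): TMM factors, the default filter on low counts, quasi-likelihood test, Benjamini-Hochberg adjustment at 0.05. In single cells, each of 1 cell, log2 ratios used summed CPM with a pseudocount of 1 CPM, over genes with at least 20 counts. Intervals are at 95% and cover counting error only. GC content is that of the principal transcript in GENCODE v29, and the correction fits a lowess curve to each library.

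The test was checked on simulated data, drawn for both groups from the untreated profile with changes set in randomly chosen genes. These data held no depletion of rRNA and no shift with GC content, so the check does not cover either. Members and gene lists were chosen with earlier results of these data known. Named genes are all members and, from each list, up to 3 called genes with the largest fold change, or the 2 most expressed where none was called. YME1L1 is named as well, as the 1 list gene called after the GC correction. Correction for the third codon position was added after the data were seen, as were the sequences shown. Alternatives covered scaling, filtering, GC content, pseudogenes, DESeq2 1.42.0 and each library left out. Groups share replicate numbers. Same-numbered single cells deviated from group means together (r = 0.922 to 0.932 over 7349 genes), so the numbers were taken to pair the cells, from the data alone.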

Additional observations from a re-analysis of the deposited data

Results flagged for a closer look

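In a group of 4 cells, a cell was singled out where its gap to the nearest other cell exceeded Dixon's 95% critical value for the range of the group. The rule was applied to 20 groups, of which chance singles out about 1 in 20. HSPA8 in untreated single cell 3 stood at 1081 CPM outside rRNA, against 1627 to 1726 in the other untreated cells. HSP90AA1 in DASHed single cell 3 stood at 536.9 CPM outside rRNA, against 850.3 to 903.9 in the other DASHed cells. Cell 3 was also the lowest for HSPA8 after depletion, at 425.8, and for HSP90AA1 without it, at 1570 CPM outside rRNA.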

How the results depend on the processing

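The count of 9 called members was 5 (4 up, 1 down) under scaling to total counts, 5 after GC correction and 4 after correction for the third codon position; it was 7 to 9 with a library left out. With DESeq2, no filter or pseudogenes added it was 9. Of all genes, 2990 were called, against 6834 scaled to total counts, 401 after GC correction, 483 after the correction for the third codon position and 1417 to 3498 with a library left out (1417 without untreated replicate 1, 1424 without untreated replicate 2). In the other lists 37 calls became 56, 1, 3 and 24 (total counts, GC content, the third codon position, DESeq2) and 19 to 35 with a library left out, 19 without either untreated replicate.

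Replicate number as a block in mini-bulk, where the labels state no pairing and deviations of same-numbered libraries correlated at 0.478, gave 10 members, 5406 genes and 57 list calls, and HSPA5 then passed as a fall (−0.41, edgeR adjusted p = 0.0149). Block and GC correction together gave 8, 1766 and 15, and HSPA5 then passed as a rise (0.44, edgeR adjusted p = 0.0391).

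Signs turned as follows. Scaled to total counts, mini-bulk log2 fold changes were 0.22 for HSPA8, 1.01 for HSP90AB1, 1.61 for HSPA5 and 0.82 for HSPA9. HSPA5 and HSPA9 were at 0.45 and 0.030 with GC correction, 0.44 and 0.023 with block and GC correction, and 0.50 and 0.28 with the correction for the third codon position; with a library left out HSPA5 ran from −0.70 to 0.076, the latter without DASHed replicate 1. In single cells, with no median taken off, HSPA8 was at 0.31, HSP90AB1 at 0.63 and HSPA9 at 0.64. A pseudocount of 10 CPM gave 0.14 for HSP90AB1 and 0.025 for HSPA9, GC correction 0.31 for HSPA9, and HSPA5 was at −0.16 outside rRNA and −0.61 against genes of like expression. The log2 ratio of the summed share went from 0.76 to −1.14 in mini-bulk and from 0.59 to −0.99 in single cells outside rRNA. With a library left out it was 0.68 to 0.85 in mini-bulk and 0.50 to 0.78 in single cells, the highest without untreated replicate 2, and the block over pairs kept its sign. The cause was not tested.

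The side of the median gene in same-numbered cells depends on which genes set that median. With genes counted in the pair, a choice made after other values were seen, 7 members were below and 2 above in all 4 pairs, as were 29.2% and 19.5% of 7347 genes; with genes counted over the 8 cells, 4 were below and 3 above, against 8.66% and 36.7%.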
